A study of Homo sapiens with 4 samples.

Results

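The genes described here are those of the ephrin, semaphorin, slit and netrin guidance systems, measured in cells of the established breast cancer line MDA-MB453. They were chosen by name, though with earlier results of these data known: every probe whose gene symbol begins with EPHA, EPHB, EFNA, EFNB, SEMA, PLXN, ROBO or UNC5, or with SLIT or NTN and a digit, or is NRP1, NRP2 or DCC. This gave 70 of the 20046 genes named on the array, measured by 114 of its 47321 probes. One of them, UNC50, shares only the first letters of its name with the netrin receptors and is kept apart below. The study set GFP-positive cells, which the labels call cancer stem-like, against GFP-negative cells of the same line, labelled as not stem-like, with green fluorescent protein (GFP) as the marker. The sources used here do not say which promoter drives the GFP. Each group had 2 bead arrays, 4 in all. Both groups were grown in the same medium with serum, and the series text states that pairs of RNA were isolated on different days and that batches of RNA were combined for the arrays.

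Guidance genes encode cues and receptors that were first studied in growing axons and also act in epithelia, vessels and tumours. Ephrins sit on the cell surface and bind EPH receptor tyrosine kinases on the neighbouring cell, with signals running into both cells, so that cells of unlike ephrin and EPH content tend to repel and sort from each other. Semaphorins signal through plexins, and the secreted class 3 members mostly need a neuropilin as co-receptor. Slits bind ROBO receptors and netrins bind DCC and UNC5 receptors. In the mammary gland, slit, netrin and ephrin genes have been tied to the layering of luminal and basal cells.

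The ephrin ligands were called in both directions, and the promoters of 4 of the 5 called ephrin genes are shown here for reference, while EFNB3, which was lower, is named only. Each runs 250 bases before to 50 bases after the gene start of RefSeq's GRCh38.p14 annotation, 5′ to 3′ on the gene's strand. CpG dinucleotides are in capitals. EFNB2 (chr13:106535613-106535912, minus strand) and EFNA1 (chr1:155127626-155127925, plus strand) were higher in GFP-positive cells. EFNB1 (chrX:68828771-68829070, plus strand) and EFNA4 (chr1:155063490-155063789, plus strand) were lower.
EFNB2: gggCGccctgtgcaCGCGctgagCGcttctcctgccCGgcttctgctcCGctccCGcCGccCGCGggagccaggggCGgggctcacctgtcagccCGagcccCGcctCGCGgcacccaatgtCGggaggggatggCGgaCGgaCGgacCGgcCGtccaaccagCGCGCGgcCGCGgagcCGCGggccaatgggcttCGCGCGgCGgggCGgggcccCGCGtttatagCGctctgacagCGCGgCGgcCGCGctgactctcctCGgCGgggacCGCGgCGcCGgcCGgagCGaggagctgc
EFNB1: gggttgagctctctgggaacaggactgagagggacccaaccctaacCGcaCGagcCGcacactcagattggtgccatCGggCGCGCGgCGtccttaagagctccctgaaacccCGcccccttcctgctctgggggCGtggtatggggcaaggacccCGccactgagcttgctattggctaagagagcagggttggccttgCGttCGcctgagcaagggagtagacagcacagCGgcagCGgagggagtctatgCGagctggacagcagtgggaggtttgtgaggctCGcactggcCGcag
EFNA1: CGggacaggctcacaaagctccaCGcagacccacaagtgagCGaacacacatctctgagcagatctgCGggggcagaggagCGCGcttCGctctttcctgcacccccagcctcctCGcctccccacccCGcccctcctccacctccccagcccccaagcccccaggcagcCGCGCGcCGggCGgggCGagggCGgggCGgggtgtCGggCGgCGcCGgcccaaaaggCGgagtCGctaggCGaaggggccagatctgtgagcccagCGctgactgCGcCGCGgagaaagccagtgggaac
EFNA4: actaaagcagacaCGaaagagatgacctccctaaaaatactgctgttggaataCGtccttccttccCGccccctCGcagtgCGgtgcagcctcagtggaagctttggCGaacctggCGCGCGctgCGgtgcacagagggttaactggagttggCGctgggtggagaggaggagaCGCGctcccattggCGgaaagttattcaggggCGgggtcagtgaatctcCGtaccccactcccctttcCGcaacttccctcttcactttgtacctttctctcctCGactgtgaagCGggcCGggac
The EFNB2 window held 49 CpG dinucleotides and the EFNB1 window 18, while EFNA1 held 28 and EFNA4 held 20, against a median of 14 over 35116 such windows. The letters GGGCGG, searched on both strands, occurred 3 times for EFNB2, 1 time for EFNB1, 5 times for EFNA1 and 2 times for EFNA4, and were present in 45% of all windows. The letters TATAAA, searched in the same way, were found 1 time for EFNB2, on the strand opposite to the one printed, and in none of the other 3 windows. They were present in 11.5% of all windows. ACGTG and TGANTCA, also searched on both strands and present in 21.4% and 7.71% of all windows, occurred in none of these 4. Such matches describe the letters of the windows only.

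Signals are given below as log2 of the background-corrected and quantile-normalized bead signal. A probe counts as detected on an array where its detection p is under 0.05, and a probe was tested where it was detected on both arrays of at least 1 group. Between 17400 and 18197 probes were detected per array, and median signals lay between 177.8 and 191.9. Of the 114 guidance probes, 43 were detected on each GFP-positive array, and 34 and 36 on GFP-negative replicates 1 and 2. Of 9 fixed markers of the line with a named probe, EPCAM, ERBB2, FOXA1, KRT8 and XBP1 were detected on all 4 arrays, and PIP on none. SPDEF was detected on the GFP-negative arrays alone and TFAP2B on 1 GFP-negative array. Some of the line's markers moved with the groups: the keratin KRT8 was higher in GFP-positive cells by 5.18 ± 0.34 (log2 difference ± SE, adjusted p = 2.12e-05, limma) and EPCAM by 2 of its 3 probes, while ERBB2 had -1.46 ± 0.17 on its 1 tested probe and FOXA1 -0.94 ± 0.22, both lower (adjusted p = 0.000504 and 0.0126). KRT18, on its 1 tested probe, and SPDEF did not pass (0.389 ± 0.222 and -0.495 ± 0.169, adjusted p = 0.202 and 0.0515, limma). The summed bead signal of the line's markers was 49779 and 52117 on the GFP-positive arrays against 31900 and 40471. Within that sum, KRT8 alone gave 12411 and 12726.6 against 658.3 and 417.1. Most defining markers of other cell types were near background: PTPRC, CD3E and LYZ for leukocytes, PECAM1, CDH5, VWF, CLDN5 and EMCN for endothelium, DCN, LUM, FAP and PDGFRA for fibroblasts, and GFAP, RBFOX3, SNAP25 and SYP for neurons and glia were detected on no array. Of the leukocyte markers, however, CD14 and CD68 were detected on all 4 arrays. CD14 did not pass on its 1 tested probe (-0.314 ± 0.287, adjusted p = 0.415, limma). Of the erythroid markers, ALAS2 and HBA1 were detected on no array and HBB on 1 array of each group. Those of other cell types that moved with the groups were the collagens COL1A1, COL1A2 and COL3A1, lower in GFP-positive cells, and MBP and 1 of the 2 tested CD68 probes, higher there. The summed bead signal of the fibroblast markers was 2154 and 2248 on the GFP-positive arrays against 2850 and 3483, and that of the leukocyte markers 2673 and 2939 against 2733 and 2543. That of the neuron and glia markers was 3297 and 3774 against 1123 and 1163. Most of its difference came from 1 MBP probe, at 2212.8 and 2636.6 against 172.6 and 187.5. The part of these markers in the results below was not tested.

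Guidance genes differed between the groups in both directions, with more higher than lower in GFP-positive cells. Of the 40 tested guidance probes, 30 passed an adjusted p of 0.05 (limma moderated test, Benjamini-Hochberg over 18098 tested probes), 21 higher and 9 lower. That is 75%, where 40.5% of all tested probes passed, 18.8% higher and 21.7% lower. By gene, 36 of the 70 were tested, and 18 were higher, 8 lower, 1 had probes called both ways and 9 did not pass. Among all tested genes, 45.8% had a called probe. The median difference, GFP-positive minus GFP-negative, was 0.62 on the log2 scale over tested guidance probes and -0.05 over all tested probes. With probes undetected in 1 group set at their bound, as explained below, the guidance median was 0.49 and that of all tested probes -0.045. The groups did not overlap for 34 of the 40, and for 72.6% of all tested probes.

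Passing the detection rule through 1 group only makes a difference between groups likely, and 14 of the 30 called probes were detected on neither array of the dimmer group, 11 of them higher and 3 lower in GFP-positive cells. Such probes, set at a bound, were 14 of the 40 tested guidance probes and 2294 of all 18098 tested probes. Guidance probes were thus undetected on both arrays of 1 group more often than tested probes at large. With only the probes detected on all 4 arrays, 14 of 23 guidance probes passed (60.9%), 9 higher and 5 lower, where 35.6% of all such probes passed. The remaining 34 genes failed the detection rule and have no test, 24 of them without a detected probe on any array. In RNA from a bulk population, fewer cells that express a gene and less RNA per cell cannot be told apart. The smallest 2-sided p of an exact permutation test is 0.333 at this size (2 arrays against 2), and the calls depend on limma's pooling of variance across probes.

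**Figure D1:**
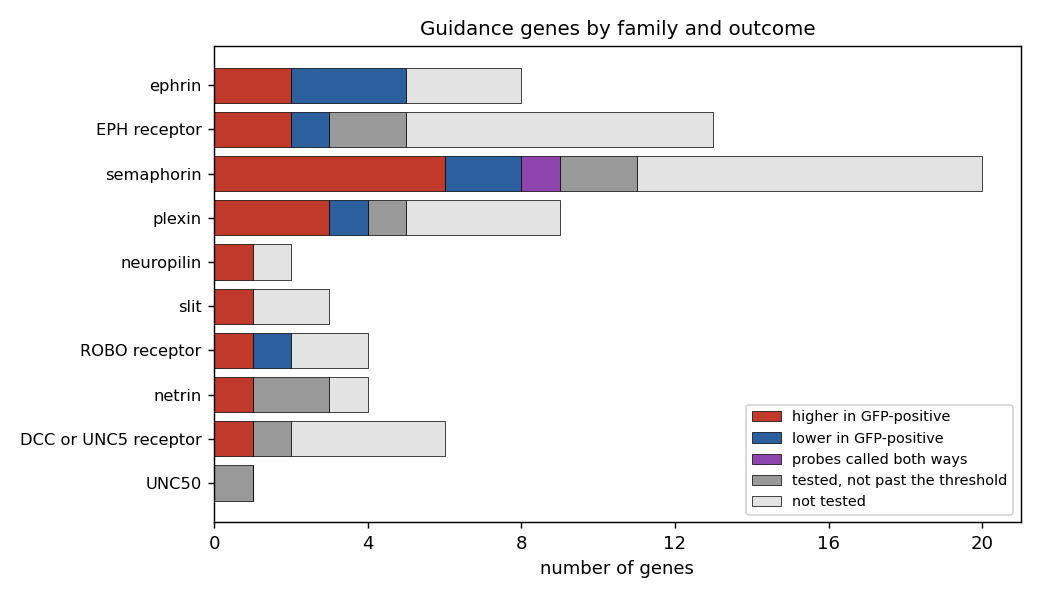
Number of guidance genes in each family (bars, genes on the horizontal axis) by outcome of the comparison of GFP-positive with GFP-negative cells. All 5 tested ephrins passed, 2 higher and 3 lower, while 9 of 20 semaphorins and 8 of 13 EPH receptors were not tested. Among all tested genes, 45.8% had a called probe.

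**Figure D2:**
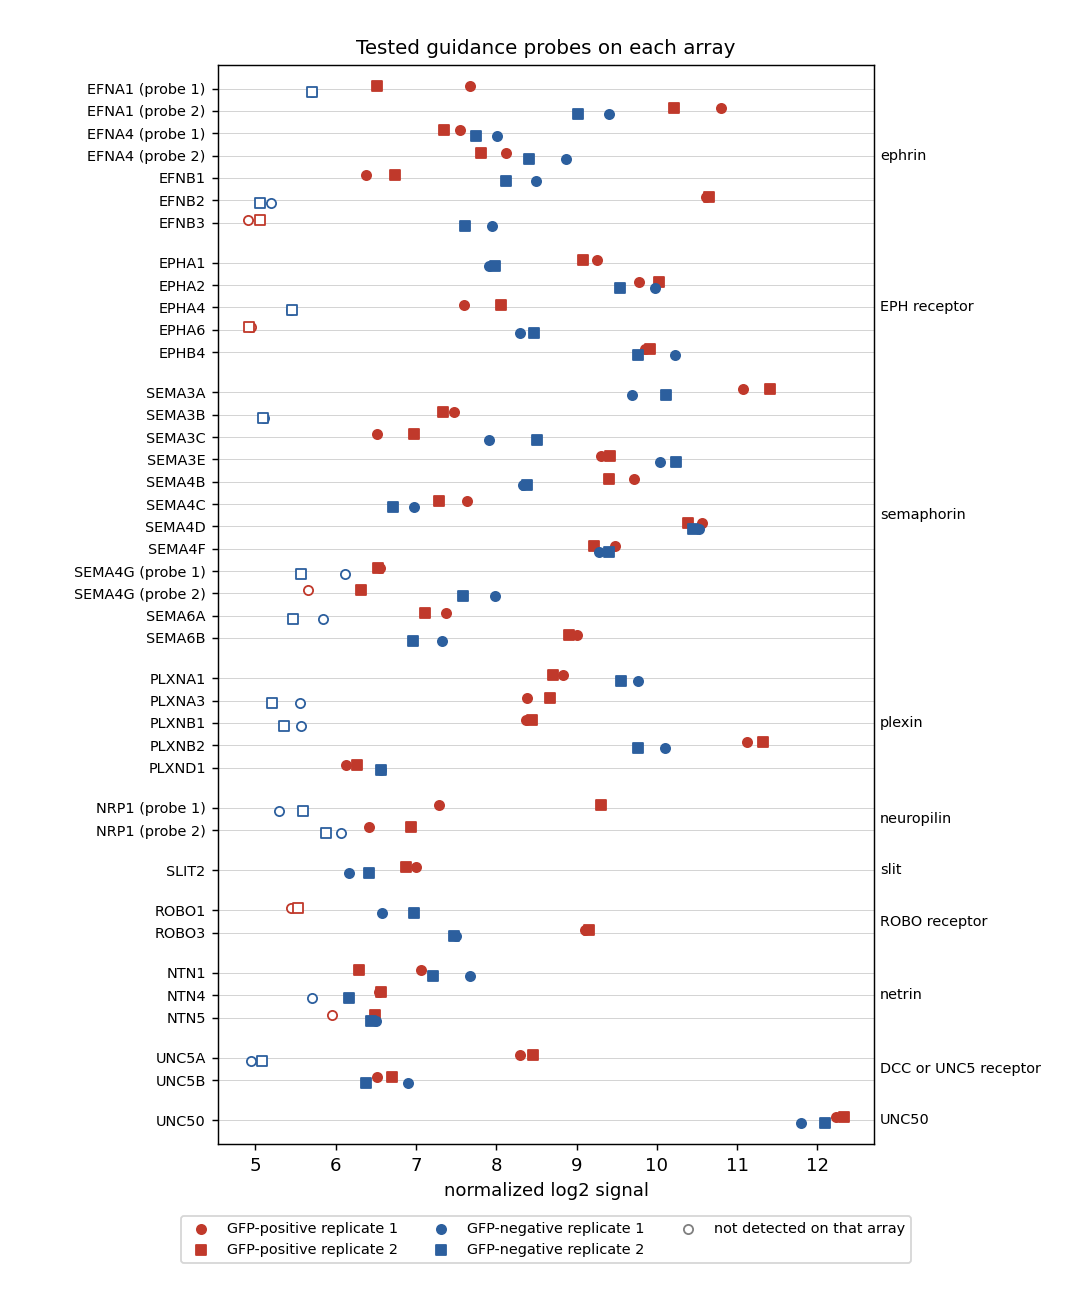
Normalized log2 signal of each of the 40 tested guidance probes on each of the 4 arrays, ordered by family. Red points are GFP-positive and blue points GFP-negative arrays, circles are replicate 1 and squares replicate 2, and open points were not detected. EFNB2 lies near 10.6 on both GFP-positive arrays and is open on both GFP-negative arrays, while EPHA6 and EFNB3 show the opposite layout.

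Among the ephrins, the B-class ligands went opposite ways. EFNB2, a transmembrane ligand known for its part in the division of arteries from veins, read 10.61 and 10.65 on GFP-positive replicates 1 and 2 and 5.20 and 5.06 on the GFP-negative arrays, where it was not detected. It was at least 22.7-fold higher in GFP-positive cells (10.63 ± 0.03 against 5.13 ± 0.10, SD, n = 2, adjusted p = 9.03e-07, limma). A bound of this kind sets the brighter group's mean against the lowest signal that counted as detected. It holds for the background-corrected values only. The other B-class ligands were lower. EFNB3, known in the mouse as a midline barrier to axons of the spinal cord, read 4.91 and 5.06 against 7.95 and 7.61 and was at least 3.12-fold lower (adjusted p = 3.13e-05, limma). EFNB1, whose loss in humans causes craniofrontonasal syndrome, read 6.38 and 6.74 against 8.50 and 8.12, a log2 difference of -1.75 ± 0.22 (SE, adjusted p = 0.000657, limma). All 3 B-class ligands had groups that did not overlap, as had 72.6% of all tested probes. EFNB2 was high on both GFP-positive arrays, and EFNB1 and EFNB3 on both GFP-negative arrays.

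The A-class ligands, which are held to the membrane by a lipid anchor, were called in both directions too. EFNA1, the principal ligand of the receptor EPHA2, was higher in GFP-positive cells by its brighter probe, at 10.80 and 10.21 against 9.40 and 9.02, a log2 difference of 1.29 ± 0.25 (adjusted p = 0.0054, limma). Its dimmer probe read 7.67 and 6.52 against 5.70 on both GFP-negative arrays, where it was not detected, and was at least 1.97-fold higher (adjusted p = 0.0157, limma). That second call ended without GFP-negative replicate 1 or 2 (adjusted p = 0.077 and 0.0635, range over 10 alternatives 0.000663 to 0.0851). The bound was 1.32-fold without GFP-positive replicate 1 and 2.92-fold without GFP-positive replicate 2. EFNA4 was lower by 1 of its 2 probes, at 8.12 and 7.81 against 8.87 and 8.41 (-0.67 ± 0.22, adjusted p = 0.047, limma), while the other had -0.43 ± 0.19 and did not pass (adjusted p = 0.108). The EFNA4 call ended without GFP-positive replicate 1, GFP-positive replicate 2 or GFP-negative replicate 1 (adjusted p = 0.0739, 0.249 and 0.178, range over 11 alternatives 0.0138 to 0.249), and its log2 difference was -0.44 without GFP-negative replicate 1. EFNA4, EFNA3 and EFNA1 lie close together on chromosome 1, EFNA3 directly beside EFNA1 and 1 other protein-coding gene between EFNA4 and EFNA3. Of these neighbours EFNA1 was higher, EFNA4 lower by 1 probe and EFNA3 detected on no array. EFNA2 and EFNA5 were also detected on no array.

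The EPH receptors that passed were EPHA1, EPHA4 and EPHA6, all of the A class, while EPHA2 and EPHB4 did not pass. EPHA4, which binds ligands of both ephrin classes, read 7.60 and 8.06 against 5.44 and 5.45 in GFP-negative cells, where it was not detected, and was at least 3.26-fold higher (adjusted p = 9.86e-05, limma). EPHA1 read 9.25 and 9.08 against 7.91 and 7.98, a log2 difference of 1.22 ± 0.17 (adjusted p = 0.00136, limma). EPHA6, studied chiefly in the nervous system, went the other way: 1 probe read 8.30 and 8.47 on the GFP-negative arrays and 4.94 and 4.92 on the GFP-positive arrays, at least 4.75-fold lower there (adjusted p = 6.03e-06, limma). The other 5 EPHA6 probes were each detected on at most 1 array and were not tested, so the difference rests on a single probe of the gene.

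EPHB4, the principal receptor of EFNB2, read 9.85 and 9.92 against 10.23 and 9.76. Its log2 difference was -0.11 with a 95% interval from -0.60 to 0.38 (adjusted p = 0.702, limma), and its groups overlapped. EPHA2 likewise overlapped, at 9.78 and 10.03 against 9.98 and 9.54, with a log2 difference of 0.15 and an interval from -0.35 to 0.65 (adjusted p = 0.616, limma). EPHA3, EPHA8 and EPHA10 had probes detected on 1 array of each group, and EPHA5, EPHA7, EPHB1, EPHB3 and EPHB6 on none.

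**Figure D3:**
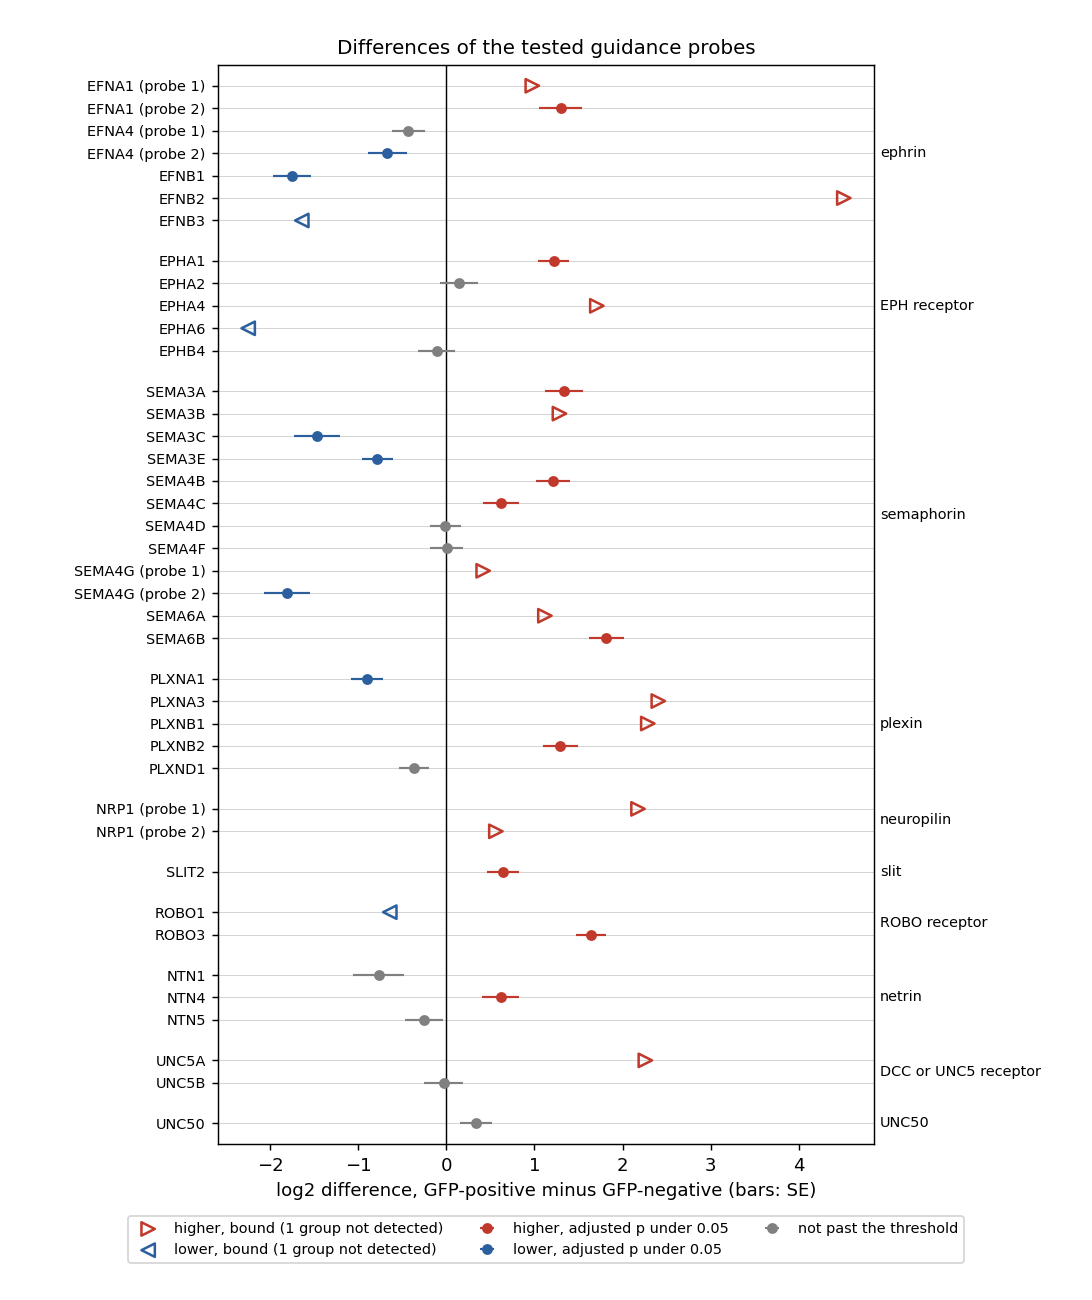
Log2 difference, GFP-positive minus GFP-negative, with its SE (horizontal bars) for each of the 40 tested guidance probes. Red and blue points passed an adjusted p of 0.05 and grey points did not, and open triangles mark the bound of a called probe that was detected on neither array of the dimmer group. EFNB2 lies at a bound of 4.51 (log2) on the higher side and EPHA6 at a bound of 2.25 on the lower side.

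Secreted class 3 semaphorins were split within 1 stretch of chromosome 7. SEMA3A, a repellent that acts through NRP1 and A-type plexins, read 11.07 and 11.41 in GFP-positive cells against 9.69 and 10.12, a log2 difference of 1.33 ± 0.22 (adjusted p = 0.00263, limma). SEMA3E, which can bind PLXND1 without a neuropilin, was lower at 9.30 and 9.42 against 10.04 and 10.24 (-0.78 ± 0.18, adjusted p = 0.0118, limma). SEMA3C, another neuropilin ligand, was lower at 6.52 and 6.98 against 7.91 and 8.51 (-1.46 ± 0.26, adjusted p = 0.00372, limma). SEMA3E and SEMA3A have no protein-coding gene between them in the annotation, and that pair differed in opposite directions. SEMA3C and SEMA3E, with 3 such genes between them, were both lower. The SEMA3E call ended without GFP-positive replicate 1 or 2 (adjusted p = 0.0802 and 0.0527, range over 11 alternatives 0.00286 to 0.0802).

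On chromosome 3, SEMA3B, a neuropilin ligand often lost in lung tumours, read 7.47 and 7.34 against 5.11 and 5.10 and was at least 2.43-fold higher (adjusted p = 4.48e-05, limma). Its second probe was detected on no array. SEMA3D and SEMA3G were detected on no array, and SEMA3F on GFP-negative replicate 1 alone.

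Of the 4 membrane-bound class 6 semaphorins, SEMA6A and SEMA6B were tested and both were higher in GFP-positive cells. SEMA6B read 9.01 and 8.91 against 7.33 and 6.96, a log2 difference of 1.81 ± 0.20 (adjusted p = 0.000315, limma). SEMA6A read 7.37 and 7.11 against 5.84 and 5.47, not detected, and was at least 2.17-fold higher (adjusted p = 0.000826, limma). Both are ligands of PLXNA2 and PLXNA4, of which PLXNA2 was detected on no array and PLXNA4 on 1. In class 4, SEMA4B was higher at 9.72 and 9.40 against 8.33 and 8.38 (1.21 ± 0.19, adjusted p = 0.00202, limma). SEMA4C, a ligand of PLXNB2, was higher by 0.62 ± 0.20 at 7.64 and 7.29 against 6.98 and 6.72 (adjusted p = 0.0463, limma). Leaving out any 1 of the 4 arrays ended the SEMA4C call, with adjusted p of 0.268 and 0.0691 without GFP-positive replicates 1 and 2 and 0.0579 and 0.147 without GFP-negative replicates 1 and 2 (range over 11 alternatives 0.0187 to 0.268).

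SEMA4D, the ligand of PLXNB1, was detected on all 4 arrays at 10.56 and 10.39 against 10.52 and 10.45, and its log2 difference was -0.01 with a 95% interval from -0.42 to 0.40 (adjusted p = 0.959, limma). SEMA4F was at 9.48 and 9.22 against 9.28 and 9.40 (0.01, interval from -0.43 to 0.44). The groups overlapped for both. The 2 probes of SEMA4G disagreed. One was lower in GFP-positive cells, at 5.66 and 6.31 against 7.99 and 7.59 (-1.80 ± 0.26, adjusted p = 0.0014, limma), and was detected on 1 of the GFP-positive arrays. The other, at 6.55 and 6.53 against 6.11 and 5.57, was at least 1.34-fold higher (adjusted p = 0.0384, limma). That higher call ended without GFP-positive replicate 1, GFP-positive replicate 2 or GFP-negative replicate 2 (adjusted p = 0.136, 0.135 and 0.127, range over 10 alternatives 0.0142 to 0.136). No direction can be given for the gene. SEMA4A, SEMA5A, SEMA5B and SEMA6C were detected on no array, and SEMA6D and SEMA7A on 1 array each.

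Among the receptors of these ligands, 5 of 9 plexins and 1 of 2 neuropilins were tested. Of the plexins 3 were higher in GFP-positive cells, 1 was lower and 1 did not pass, and the neuropilin was higher. Among all tested genes, 21.7% had a probe called higher and 24.3% one called lower. PLXNA3 read 8.38 and 8.67 against 5.55 and 5.21 and was at least 5.29-fold higher (adjusted p = 2.17e-05, limma). PLXNB1, the receptor of SEMA4D, read 8.37 and 8.44 against 5.57 and 5.36 and was at least 4.87-fold higher (adjusted p = 1.51e-05, limma). Neither was detected on a GFP-negative array. PLXNB2, the receptor of SEMA4C, was detected on all 4 arrays, at 11.12 and 11.32 against 10.10 and 9.76, with a log2 difference of 1.29 ± 0.20 (adjusted p = 0.00184, limma). For the pair of PLXNB1 and SEMA4D it was therefore the receptor that passed the threshold, and for the pair of EFNB2 and EPHB4 the ligand. EPHA4, which binds ligands of both ephrin classes, was higher as EFNB2 was.

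PLXNA1 went the other way, at 8.83 and 8.71 against 9.77 and 9.56 (-0.90 ± 0.18, adjusted p = 0.00644, limma). That call ended without GFP-positive replicate 2 (adjusted p = 0.0546, range over 11 alternatives 0.00154 to 0.0546). PLXND1, the receptor of SEMA3E, had a log2 difference of -0.37 ± 0.17 that did not pass, at 6.13 and 6.26 against 6.57 on both GFP-negative arrays (adjusted p = 0.127, limma). Its groups did not overlap. PLXNB3 and PLXNC1 were detected on 1 array each.

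NRP1, the co-receptor of SEMA3A and of vascular endothelial growth factor, was higher by both probes, with a wide spread between the GFP-positive arrays. The brighter probe read 7.29 on GFP-positive replicate 1 and 9.31 on replicate 2, and 5.30 and 5.59 on the GFP-negative arrays, where it was not detected. It was at least 4.51-fold higher (8.30 ± 1.43 against 5.44 ± 0.20, adjusted p = 0.00598, limma). The bound was 2.24-fold without GFP-positive replicate 2 and 9.09-fold without GFP-positive replicate 1, and the call ended without GFP-negative replicate 1 (adjusted p = 0.0514, range over 10 alternatives 1.85e-05 to 0.0514). The dimmer probe was at least 1.48-fold higher, at 6.42 and 6.94 against 6.07 and 5.88 (adjusted p = 0.0385, limma). This call ended without GFP-positive replicate 2, GFP-negative replicate 1 or GFP-negative replicate 2 (adjusted p = 0.267, 0.075 and 0.126, range over 10 alternatives 0.0204 to 0.267). On both probes GFP-positive replicate 2 was the brighter of its pair. The 4 probes of NRP2 were detected on no array.

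**Figure D4:**
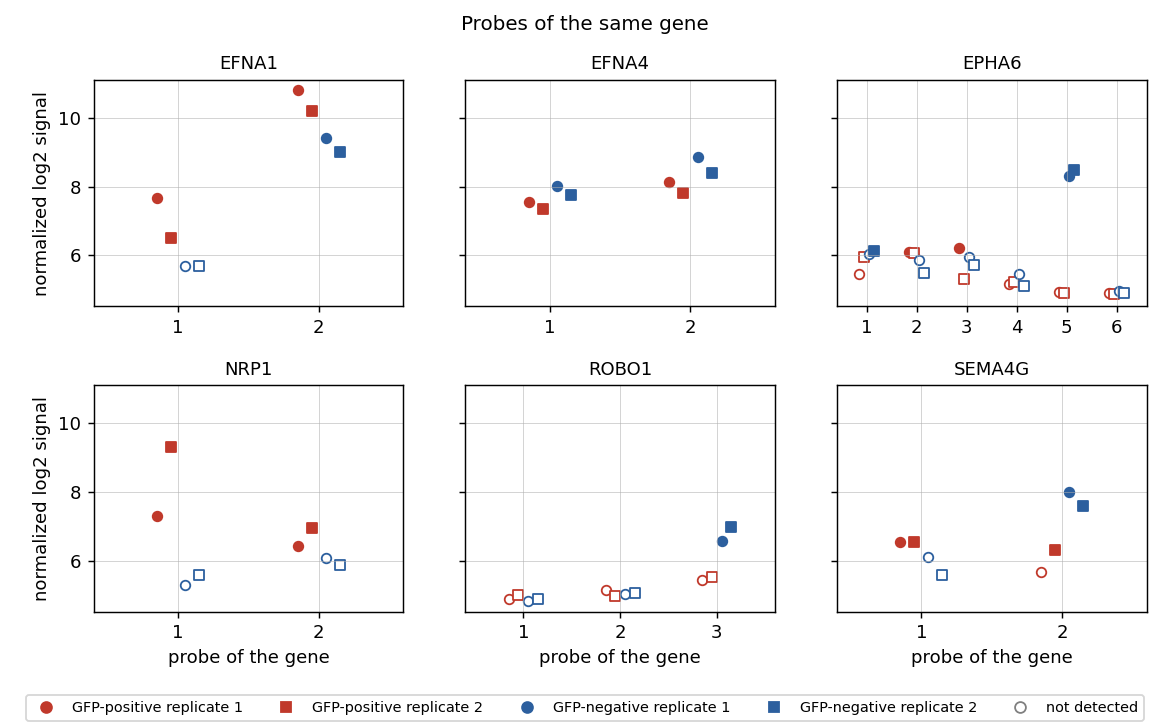
Normalized log2 signal of every probe of EFNA1, EFNA4, EPHA6, NRP1, ROBO1 and SEMA4G on the 4 arrays, red for GFP-positive and blue for GFP-negative, with open points not detected. The 2 SEMA4G probes lie in opposite order, and for EPHA6 and ROBO1 only 1 probe stands above background in GFP-negative cells on both arrays.

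The ROBO receptors diverged. ROBO3, whose mammalian form has lost strong binding to slits and which steers commissural axons across the midline, read 9.11 and 9.15 in GFP-positive cells against 7.50 and 7.48, a log2 difference of 1.64 ± 0.17 (adjusted p = 0.000247, limma). ROBO1, a slit receptor found in basal cells of the mouse mammary gland, was lower by 1 of its 3 probes, at 5.44 and 5.53, not detected, against 6.58 and 6.98, at least 1.56-fold (adjusted p = 0.00188, limma). The other 2 ROBO1 probes, and those of ROBO2 and ROBO4, were detected on no array. SLIT2, a ligand of ROBO1 and ROBO2, was higher at 7.0 and 6.87 against 6.17 and 6.42 (0.64 ± 0.18, adjusted p = 0.028, limma). The SLIT2 call ended without GFP-positive replicate 1, GFP-positive replicate 2 or GFP-negative replicate 1 (adjusted p = 0.159, 0.0953 and 0.0865, range over 11 alternatives 0.0163 to 0.159). SLIT1 and SLIT3 were detected on no array.

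In the netrin system a receptor and a ligand passed, UNC5A and NTN4. UNC5A, a repulsive netrin receptor that can trigger cell death when netrin is lacking, read 8.29 and 8.46 against 4.95 and 5.08 in GFP-negative cells, where it was not detected, and was at least 4.78-fold higher (adjusted p = 7.61e-06, limma). UNC5B overlapped between the groups, at 6.52 and 6.70 against 6.90 and 6.38, with a log2 difference of -0.03 and a 95% interval from -0.55 to 0.49 (adjusted p = 0.927, limma). DCC, the attractive netrin receptor, UNC5D and the related UNC5CL were detected on no array, and UNC5C on 1 array of each group. The ligand NTN1 read 7.06 and 6.29 against 7.67 and 7.21, a log2 difference of -0.77 ± 0.29 that did not pass (adjusted p = 0.0701, limma) without overlap between the groups. It passed with the replicate number as a block (adjusted p = 0.00904), with 75th percentile scaling (0.033) and without GFP-positive replicate 1 (0.0222), over a range of 0.00904 to 0.388 in 11 alternatives.

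NTN4, a netrin that also binds laminin in basement membranes, was higher by 0.62 ± 0.21, at 6.54 and 6.56 against 5.70 and 6.17 with detection on 1 of the GFP-negative arrays (adjusted p = 0.0498, limma). The NTN4 call ended without GFP-positive replicate 1, GFP-positive replicate 2 or GFP-negative replicate 1 (adjusted p = 0.159, 0.181 and 0.158, range over 10 alternatives 0.0194 to 0.181), and the log2 difference was 0.39 without GFP-negative replicate 1. A second NTN4 probe, detected on 1 GFP-negative array alone and not tested, lay the other way at 5.63 and 5.76 against 6.0 and 6.11. NTN5 had -0.25 ± 0.22 (adjusted p = 0.395, limma), with overlapping groups, and NTN3 was detected on no array. Further probes of UNC5B, NTN5, PLXNB2, SEMA3E, SEMA4B, SEMA4F and SEMA6B were each detected on at most 1 array of a group and were not tested. UNC50, a protein of the inner nuclear membrane, read 12.23 and 12.33 against 11.80 and 12.09 without overlap and did not pass (0.34 ± 0.19, adjusted p = 0.19, limma).

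Genes that act downstream of these receptors or beside them were called in both directions in similar numbers. Of 50 tested genes on a list of effectors, most of which act inside the cell, 15 were higher, 15 lower and 20 did not pass, where 45.8% of all tested genes had a called probe. The list's median log2 difference was 0.10, against -0.05 over all tested genes (brightest probe of each gene). Among those higher was DPYSL3, a collapsin response mediator that carries semaphorin signals to the cytoskeleton (at least 28-fold, at 10.88 and 10.98 against 5.13 and 5.14). Its relative DPYSL4 was higher too (at least 1.14-fold). The brighter relative DPYSL2 was lower, at 12.15 and 12.60 against 13.43 and 13.87 (-1.275 ± 0.237, adjusted p = 0.00462, limma). The adaptor GRB10 was higher on its 2 called probes (at least 8.15-fold and 2.48-fold). So were the exchange factors TIAM1 (at least 6.23-fold) and VAV3 (at least 3.99-fold and 2.36-fold on its 2 called probes), and ARHGEF6 (at least 3.59-fold). Among those lower were NGEF, the exchange factor ephexin that links EPHA receptors to RhoA (-2.16 ± 0.19), EVL, an actin regulator of the Ena and VASP family (-1.92 ± 0.20), ADAM10, a protease that cuts ephrins (-1.56 ± 0.33 and -1.56 ± 0.29 on its 2 called probes), and CHN1, a Rac regulator downstream of EPHA4 (-1.43 ± 0.17). In the family of EVL, VASP was higher on its 1 tested probe (1.047 ± 0.235, adjusted p = 0.0106, limma), and ENAH did not pass. These relatives of DPYSL3 and EVL were named after their values were seen. EPHA4 was higher while NGEF and CHN1, which act below EPHA receptors, were lower. Other effectors on the list, among them TIAM1 and VAV3, were higher, as EPHA4 was.

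Of 17 other tested guidance receptors, ligands and co-receptors, 6 were higher, 5 lower and 6 did not pass, where 21.7% of all tested genes had a probe called higher and 24.3% one called lower. The median was -0.28, against -0.05 over all tested genes. The adenosine receptor ADORA2B, which has been described as a partner of netrin signalling, was higher at 12.25 and 12.41 against 9.53 and 9.74 (2.70 ± 0.18, adjusted p = 2.6e-05, limma). The repulsive guidance molecule RGMB, a ligand of neogenin, was lower at 7.22 and 7.13 against 9.21 and 8.83 (-1.84 ± 0.20, adjusted p = 0.000298, limma). The adhesion molecule ALCAM had -1.47 ± 0.18. NEO1, which encodes neogenin, the receptor of RGM proteins and netrins, was lower as well, at 10.09 and 10.15 against 10.99 and 11.02 (-0.89 ± 0.17, adjusted p = 0.00525, limma). NEO1 is named for its link to RGMB and was chosen after its values were seen.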

How the data were processed

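Total RNA was amplified into cRNA carrying biotin, per the labels' protocols, and measured on Illumina arrays. The deposited intensity values (bead signals) had not been normalized, per the file headers, and the deposited detection p-value ranks each probe on each array. Per the submitters' processing notes the software was GenomeStudio 2009.2, with no statement on background subtraction. The deposited table of log2 values equalled the log2 signals after quantile normalization (largest difference 5e-09). It has a median of 7.53 on every array, is not centred per gene and is higher where signals are brighter.

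In R 4.3.3 with limma 3.58.1, neqc corrected the background with the detection p-values, added an offset of 16, quantile-normalized and took log2. Samples were grouped by the GFP label, and the 18098 probes that 1 group or both had detected (p under 0.05) on each of its arrays were fitted with limma's lmFit and eBayes, which had 2 residual degrees of freedom and 5.31 from the prior, with a threshold of 0.05 after Benjamini-Hochberg over all of them. Nothing in the labels says that a group's arrays represent separate cultures. The p-values therefore only set each difference against the spread of these samples, partly pooled over probes, and that spread may be technical. The number of arrays limits precision. The script was tested on simulated data.

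Where neither array of a group detected a probe, the fold is given as a bound. The brighter group's mean is set against a floor averaged over the dimmer group's arrays, each taken as the larger of the probe's value and that array's lowest detected value (6.11 and 6.17 on GFP-positive replicates 1 and 2, 6.15 and 6.09 on the GFP-negative arrays). Intervals are limma's 95% intervals.

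Probes were named from the platform annotation: 30111 had 1 symbol, 8 had several and 17202 were unnamed here. Of the 70 genes, 60 matched RefSeq's promoter table. Every gene with a called probe is named with its values, tested genes that did not pass with their difference, and up to 6 genes in each direction from the lists of effectors and other guidance genes together. NEO1 and the relatives of DPYSL3 and EVL were added to these. Promoters are shown for ephrin genes that went opposite ways, a choice narrowed after the values were seen. Members and lists were chosen with earlier results of these data known. The series text states that pairs were isolated on different days, and the replicate number was taken as the pair, though batches of RNA were combined. Deviations of same-numbered arrays from the group means had a correlation of 0.219 over probes. No block was used in the main comparison. The alternatives were no background correction, cyclic loess, 75th percentile scaling, the deposited log2 table, no detection filter, detection on all arrays, the replicate block, leaving out each array, and the brightest probe for each gene. Bounds with each array left out, and the median with bounds, were added after seeing the data.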

Additional observations from a re-analysis of the deposited data

How the results depend on the processing

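Of the 30 called guidance probes, 20 kept their call and direction in every alternative that could test them, among them EFNB1, EFNB2, EFNB3, EPHA1, EPHA4, EPHA6, SEMA3A, SEMA3B, SEMA3C, SEMA6A, SEMA6B, PLXNA3, PLXNB1, PLXNB2, ROBO1, ROBO3 and UNC5A. The other 10 lost it at least once, and no called probe changed sign. Beside the losses on leaving out an array given above, the calls of NTN4, SEMA4C, SLIT2, the higher SEMA4G probe and the dimmer NRP1 probe ended without background correction and in the deposited table, and that of EFNA4 with cyclic loess. Requiring detection on all 4 arrays left 14 called guidance probes from 14 genes, 9 higher and 5 lower, since fewer probes are tested. The 14 were all called in the main comparison too. With the replicate number as a block, 31 guidance probes passed, NTN1 being the addition, and 8471 probes of all kinds in place of 7322. The block changed no other call among the guidance probes. Leaving out 1 array gave 22 to 26 guidance probes and 21 to 26 guidance genes, 22 to 26 of the original 30 calls, 26 to 40 effector and other guidance genes in place of 41, and 4494 to 7000 probes of all kinds in place of 7322. The 26 and the 4494 were the counts without GFP-positive replicate 2. Where 1 array of a group remained, it was assumed to vary like the other group's.

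Without background correction, which gave the same values as the deposited log2 table, 25 guidance probes passed, 16 higher and 9 lower. Of all tested probes 7670 passed then, in place of 7322. Of the 30 called guidance differences, 21 shrank by over 1.5 times, among them EFNB1 at -0.96 in place of -1.75. The size of a difference near background thus depends on that step, and so do the bounds given above. Without it, some differences lay below their bounds: EFNB2 at 3.66 against 4.51, UNC5A at 1.94 against 2.26 and EPHA4 at 1.18 against 1.71 (log2). Without a detection filter 25 guidance probes passed, and 5546 of all 47321 probes. Among the guidance probes 8 calls ended (EFNA1 dimmer probe, EFNA4, NTN4, both NRP1 probes, SEMA4C, the higher SEMA4G probe and SLIT2). Added were 3 probes, of EPHB1, EPHB6 and SEMA3B, none of them detected on any array. With 75th percentile scaling the median of all tested probes lay at -0.12, against -0.05 in the main comparison. Of the calls among all tested probes, 46.4% were higher in the main comparison. That share ran from 41.6% (75th percentile scaling) to 52.2% (cyclic loess). The share of guidance calls that were higher in GFP-positive cells was 70% in the main comparison and ran from 64% (no background correction, the deposited table and no detection filter) to 72.7% (without GFP-positive replicate 2).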
